A study of Mus musculus with 6 samples.

Results

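Immediate early genes and the antiproliferative gene Btg2 were examined in liver RNA of Arid2 LKO and WT mice. The 10 genes were given by name, with no measured value in the rule: the Fos family members Fos and Fosb, the Jun family members Jun, Junb and Jund, the regulators Egr1, Atf3 and Ier2, and Ier3 and Btg2. All 10 were found among the 54532 gene identifiers of the tables, and 9 of them were among the 11672 genes tested, those that averaged 0.5 FPKM or more over the 6 libraries. Fosb was under that limit. There were 3 libraries from mice described as liver-specific Arid2 knockouts (LKO) and 3 from wild-type mice (WT), all without treatment. ARID2 belongs to PBAF, a SWI/SNF-type complex that remodels chromatin. The labels name neither the Cre line nor the strain, the age or the number of animals behind a library, and all p-values therefore rest on library-to-library spread, which may be technical. The values were FPKM, that is reads scaled to exon length and to a size for each library.

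Immediate early genes are switched on within minutes of a stimulus from transcription machinery that is already in place. Growth factor, cytokine and stress signals reach them through MAP kinases, serum response factor with its ternary complex partners, and CREB. FOS and JUN proteins pair through leucine zippers into the AP-1 transcription factor. In liver these genes are known for their brief induction after partial hepatectomy, inflammatory signals and tissue handling. BTG2 is a partner of the CCR4-NOT deadenylase, and its gene is also a target of p53.

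Reads recovered from the FPKM numbered between 13947787 and 18159285 per LKO library and between 16140525 and 17312282 per WT library. The library scale behind the FPKM did not follow these sums. The 2 libraries numbered 1 stood apart, with 2368 (LKO) and 2003 (WT) genes at 1 to 5 reads, against 3913 to 4263 in the other 4. Mitochondrial genes took 27.6%, 7.72% and 4.76% of reads in LKO replicates 1 to 3, against 20.7%, 10.2% and 18.5% in WT replicates 1 to 3. Arid2 itself was at 2.55, 1.33 and 2.04 FPKM in LKO libraries, against 2.65, 1.74 and 1.79 FPKM in WT libraries (limma adjusted p = 0.974), so it did not check the genotype labels. The summed level of 9 hepatocyte markers was 48880 to 64790 FPKM in LKO libraries and 44340 to 58500 FPKM in WT libraries, so hepatocyte transcripts were abundant in all 6. Among all genes tested, 1 was higher in LKO (0.00857%) and 4 were lower (0.0343%) at a limma adjusted p under 0.05. None of the 9 tested immediate early genes was among them.

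Promoter sequence is shown for Btg2, Atf3 and Junb, the genes whose LKO and WT libraries did not overlap, and for Fos, which varied most within LKO. Windows run from 250 bases before to 50 bases from the start site on and come from RefSeq on GRCm38.p6, the build also called mm10. They lie at chr1:134079106-134079405, minus strand, for Btg2, chr1:191183284-191183583, minus strand, for Atf3, chr8:84978699-84978998, minus strand, for Junb, and chr12:85473640-85473939, plus strand, for Fos. Capitals mark the cAMP response element TGACGTCA, its shorter core TGACG and the TATA element TATAAA, searched on both strands. The RefSeq start of Atf3 lies inside the longer GENCODE gene span, while those of Btg2 and Junb lie upstream of their GENCODE spans.
Btg2: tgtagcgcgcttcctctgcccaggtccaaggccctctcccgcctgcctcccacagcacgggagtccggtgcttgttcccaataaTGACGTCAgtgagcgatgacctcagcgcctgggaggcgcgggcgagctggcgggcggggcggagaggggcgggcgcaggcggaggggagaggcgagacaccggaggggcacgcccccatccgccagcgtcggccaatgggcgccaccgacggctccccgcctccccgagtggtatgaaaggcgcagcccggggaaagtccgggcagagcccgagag
Atf3: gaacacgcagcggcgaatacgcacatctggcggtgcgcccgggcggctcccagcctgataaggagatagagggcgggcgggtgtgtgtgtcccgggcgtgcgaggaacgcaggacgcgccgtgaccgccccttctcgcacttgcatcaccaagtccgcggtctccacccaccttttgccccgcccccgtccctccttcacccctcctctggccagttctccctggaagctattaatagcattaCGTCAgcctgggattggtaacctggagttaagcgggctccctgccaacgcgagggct
Junb: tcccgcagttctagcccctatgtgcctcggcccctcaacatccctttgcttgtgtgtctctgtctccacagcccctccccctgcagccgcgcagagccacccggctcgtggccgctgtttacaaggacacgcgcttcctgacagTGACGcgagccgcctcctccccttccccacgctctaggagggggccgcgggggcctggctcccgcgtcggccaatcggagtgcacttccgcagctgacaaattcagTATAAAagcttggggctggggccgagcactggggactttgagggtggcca
Fos: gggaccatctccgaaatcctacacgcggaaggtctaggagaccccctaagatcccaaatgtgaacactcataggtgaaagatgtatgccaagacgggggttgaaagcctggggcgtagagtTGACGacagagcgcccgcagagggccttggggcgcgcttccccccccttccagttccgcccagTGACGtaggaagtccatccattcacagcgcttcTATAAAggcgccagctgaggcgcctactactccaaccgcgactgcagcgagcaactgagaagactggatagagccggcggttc

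The full element TGACGTCA was found in the Btg2 window, at -166 to -159, counted from the RefSeq start as 1, and in none of the other 7 windows that RefSeq gave for the 10 genes. The Jund window ends at 70697788, before the GENCODE gene start at 70698949, and so lies outside the gene measured here. Of all 32851 promoter windows 1.79% held it. The core TGACG, which also lies inside the full element, occurred in the windows of Fos, Fosb, Junb, Atf3 and Btg2, against 20.8% of all windows. GC content was 58.7% to 72.0% in those windows and 46.7% to 60.0% in the windows of Jun, Jund and Ier3. Its median over all windows was 52.7%, and the shares given for all windows were not matched for GC content. Fos held it at -129 to -125 and -66 to -62. TATAAA stood at -33 to -28 in Fos and at bases 1 to 6 of the RefSeq start of Junb, and 13.6% of all windows held it. The GENCODE span of Junb starts downstream of those bases, at 84978718 on the minus strand. TATAAA thus lies before the GENCODE start of Junb. The 8 windows held no TGAGTCA (the AP-1 element, also read as TGACTCA on the other strand), no GCGTGGGCG (the EGR element) and no CArG box, the motif of serum response factor. Among all windows these were found in 5.20%, 0.612% and 1.63%. RefSeq gave no window for Egr1 or Ier2, and sequence more than 250 bases before a start was not searched. Absence of an element therefore holds for these windows only. A match describes these letters only.

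Btg2 had the greatest difference of the 9 tested genes on the log2(FPKM + 1) scale, while Atf3 had the greater ratio of means. BTG2 restrains cell cycle progression in many cell types. Btg2 (ENSMUSG00000020423, chromosome 1, 134075170 to 134079120, minus strand, mm10; 2 exons) had 77.9, 23.0 and 41.8 FPKM in LKO replicates 1 to 3, against 4.77, 2.49 and 5.51 FPKM in WT replicates 1 to 3. The lowest LKO library therefore lay above the highest WT library. These levels rested on 2715, 986 and 2176 reads in LKO and on 252, 120 and 236 reads in WT. The mean was 47.6 ± 27.9 FPKM in LKO and 4.25 ± 1.57 FPKM in WT (SD, n = 3 each), a ratio of 11.2. On the log2(FPKM + 1) scale the difference was 3.09 ± 0.47 (SE, limma, 95% interval 1.99 to 4.20). Among all genes tested Btg2 ranked 19 by p and 14 by size of increase, but it missed the threshold (limma adjusted p = 0.135). With 1 library left out the difference stayed between 2.66 and 3.52, and the limma adjusted p between 0.0839 and 0.332. Between the libraries numbered 1 the log2 difference was 3.77, and without them it was 2.75.

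Atf3 and Junb were also higher in every LKO library than in every WT library. Atf3, a bZIP factor induced by stress, had 9.32, 1.54 and 4.37 FPKM in LKO replicates 1 to 3, against 0.241, 0.449 and 0.446 FPKM in WT replicates 1 to 3. The LKO values came from 255, 52 and 179 reads and the WT values from 10, 17 and 15 reads, so the WT level is the less precise. Atf3 (ENSMUSG00000026628, chromosome 1, 191170296 to 191218039, minus strand; 4 exons) differed by 1.92 ± 0.47 on the log2(FPKM + 1) scale (SE, limma, 95% interval 0.83 to 3.01, adjusted p = 0.264). That scale understates a change at such low levels, and with a pseudocount of 0.1 the log2 difference of Atf3 was 3.14 (limma adjusted p = 0.185). The mean of Atf3 was 5.08 ± 3.93 FPKM in LKO and 0.378 ± 0.119 FPKM in WT (SD, n = 3 each), a ratio of 13.4. Within LKO the Atf3 libraries spanned a ratio of 6.03, and within WT one of 1.86. Without the libraries numbered 1 the log2 difference of Atf3 was 1.35, and between those libraries alone it was 3.06.

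Junb encodes a JUN protein that pairs with FOS proteins and restrains some JUN functions. Junb (ENSMUSG00000052837, chromosome 8, 84974484 to 84978718, minus strand; 1 exon) had 125, 49.4 and 100.3 FPKM in LKO replicates 1 to 3, against 33.5, 38.1 and 44.6 FPKM in WT replicates 1 to 3. The groups were separated by a narrow gap, between LKO replicate 2 and WT replicate 3. The log2 difference was 1.13 ± 0.40 (SE, limma, 95% interval 0.20 to 2.06, adjusted p = 0.441). The gene overlaps Prdx2 on the opposite strand by 351 bases. The sources used here do not state a strand setting, so reads of the pair may be shared. Prdx2 had 38.4, 45.3 and 36.6 FPKM in LKO replicates 1 to 3, against 31.2, 46.3 and 43.6 FPKM in WT replicates 1 to 3.

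Of the 9 tested genes, Btg2, Atf3 and Junb were thus the 3 whose LKO libraries all lay above their WT libraries. Among all genes tested, 8% had every LKO library above every WT library and 7.42% had every LKO library below. The 10 genes were named with earlier results of these data known, so this count is a description. Without LKO replicate 2 it was 7, with Fos, Jun, Egr1 and Ier2 added, against 10.3% of all genes tested. Without LKO replicate 3 it was 5, with Jund and Ier3 added, against 15.5% of all genes. Without WT replicate 3 it was also 5, with Fos and Ier3 added, against 10.3% of all genes. Fewer libraries separate more easily, so these counts do not compare directly with the 3 of all 6 libraries. With 3 libraries against 3, the exact permutation p of a gene is at least 0.1. In whole liver, a change in RNA per cell and a change in the number of cells of a type cannot be told apart.

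**Figure D1:**
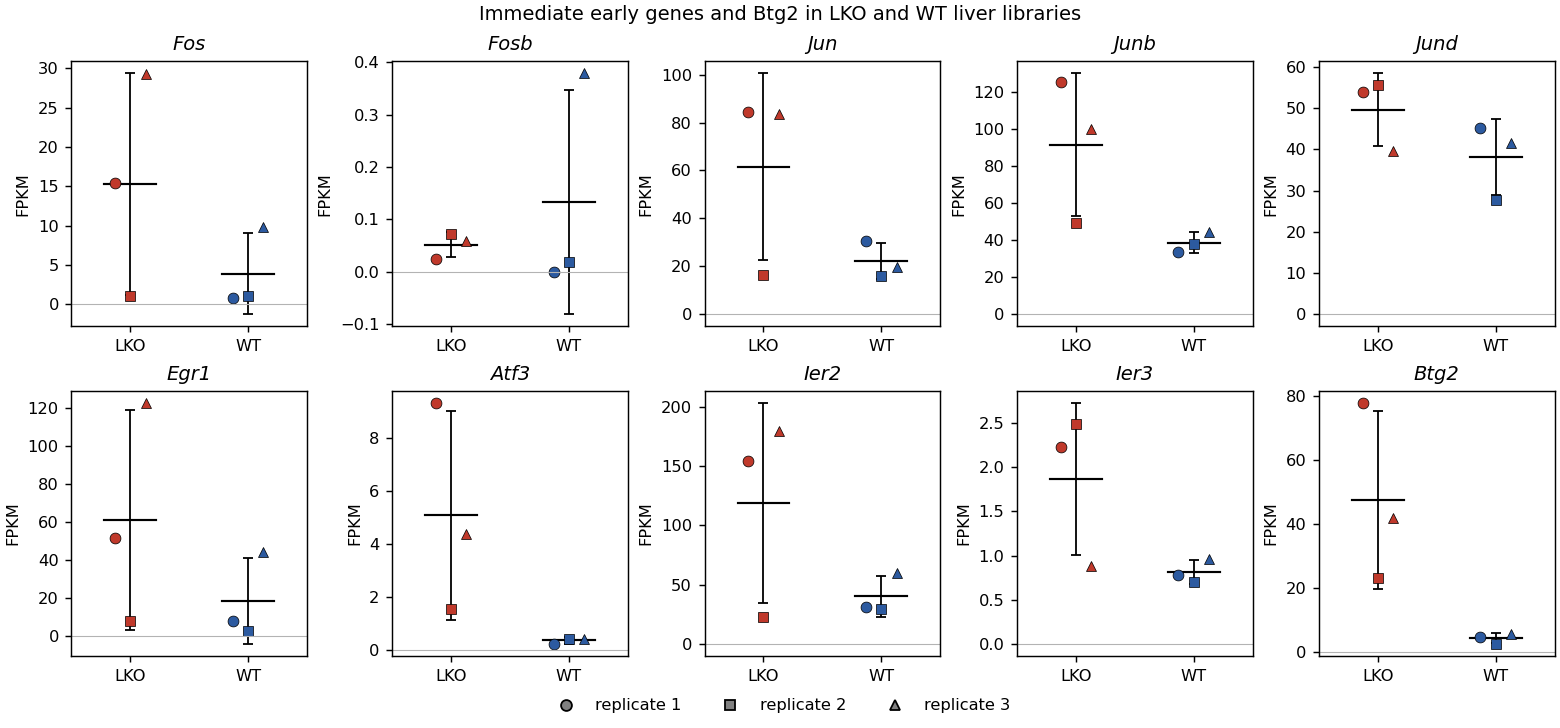
FPKM of each of the 10 genes (vertical axes, own scale per gene) in 3 LKO (red) and 3 WT (blue) libraries, with the replicate number given by the symbol. Horizontal lines are means and bars are SD. Btg2, Atf3 and Junb had no overlap between groups, and LKO replicate 2 (square) was the lowest LKO library for Fos, Jun, Junb, Egr1, Atf3, Ier2 and Btg2.

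Fos, Egr1 and Ier2 followed another pattern, in which LKO replicate 2 lay among or below the WT libraries. Fos (ENSMUSG00000021250, chromosome 12, 85473890 to 85477273, plus strand; 4 exons), the founding FOS family gene, had 15.4, 1.06 and 29.3 FPKM in LKO replicates 1 to 3, against 0.794, 1.02 and 9.85 FPKM in WT replicates 1 to 3. LKO replicate 2 had 39 reads, close to the 36 and 42 of WT replicates 1 and 2, while LKO replicate 3 had 1311. Fos levels spanned a ratio of 27.7 within LKO and of 12.4 within WT. The log2 difference was 1.57 ± 1.08, with an interval that spans 0 (SE, limma, 95% interval -0.96 to 4.10, adjusted p = 0.744). It was 2.71 without LKO replicate 2 and 2.41 when WT replicate 3 was left out. Leaving out LKO replicate 3 gave 0.77, and leaving out the libraries numbered 1 gave 0.76.

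Egr1 encodes a zinc finger factor whose induction by serum response factor parallels that of Fos. Egr1 (ENSMUSG00000038418, chromosome 18, 34859823 to 34864984, plus strand; 2 exons) had 51.6, 7.97 and 122.7 FPKM in LKO replicates 1 to 3, against 8.02, 2.65 and 44.3 FPKM in WT replicates 1 to 3. LKO replicate 3 was the highest library, while WT replicate 3 lay above LKO replicate 2. The log2 difference was 1.76 ± 1.16 (SE, limma, 95% interval -0.94 to 4.47, adjusted p = 0.721). It was 2.82 without LKO replicate 2 and 2.76 without WT replicate 3, against 0.93 without LKO replicate 3 and 0.94 without WT replicate 2. Ier2, an immediate early gene for a small nuclear protein (ENSMUSG00000053560, chromosome 8, 84661331 to 84662852, minus strand; 1 exon), had 154, 22.7 and 180 FPKM in LKO replicates 1 to 3, against 31.0, 29.5 and 60.2 FPKM in WT replicates 1 to 3. LKO replicate 2 was the lowest of all 6 libraries. Its log2 difference was 1.16 ± 0.78 (SE, limma, 95% interval -0.66 to 2.97, adjusted p = 0.730). Leaving out LKO replicate 2 gave 2.10, while leaving out LKO replicate 1 or 3 gave 0.74 or 0.63.

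Jun encodes the main growth-promoting partner of FOS. Jun (ENSMUSG00000052684, chromosome 4, 95049034 to 95052222, minus strand; 1 exon) had 84.5, 16.4 and 83.7 FPKM in LKO replicates 1 to 3, against 30.7, 16.0 and 19.9 FPKM in WT replicates 1 to 3. LKO replicates 1 and 3 were high and LKO replicate 2 lay among the WT libraries. The log2 difference was 1.16 ± 0.64 (SE, limma, 95% interval -0.34 to 2.66, adjusted p = 0.651). Without LKO replicate 2 it was 1.93, and without LKO replicate 1 or 3 it was 0.78. Between the libraries numbered 1 the log2 difference was 1.43 for Jun, 1.87 for Junb, 2.55 for Egr1 and 2.28 for Ier2. Without those libraries it was 1.03 for Jun, 0.76 for Junb, 1.37 for Egr1 and 0.60 for Ier2. The antisense gene Junos overlaps Jun by 689 bases and was at most 0.193 FPKM.

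Of the 9 tested genes, Jund and Ier3 varied least within LKO on the log2(FPKM + 1) scale, and LKO replicate 3 was their lowest LKO library. Jund, whose product is abundant in resting cells (ENSMUSG00000071076, chromosome 8, 70698949 to 70700616, plus strand; 1 exon), had 53.9, 55.6 and 39.5 FPKM in LKO replicates 1 to 3, against 45.2, 27.8 and 41.5 FPKM in WT replicates 1 to 3. The groups overlapped, with a log2 difference of 0.38 ± 0.31 (SE, limma, 95% interval -0.35 to 1.11, adjusted p = 0.788), which was 0.18 without WT replicate 2. Ier3, a stress-inducible gene for a protein that affects cell survival (ENSMUSG00000003541, chromosome 17, 35821684 to 35822923, plus strand; 2 exons), had 2.23, 2.49 and 0.884 FPKM in LKO replicates 1 to 3, against 0.780, 0.704 and 0.962 FPKM in WT replicates 1 to 3. These values rested on 19 to 44 reads in LKO and 14 to 17 in WT. The log2 difference of Ier3 was 0.61 ± 0.27 (SE, limma, 95% interval -0.02 to 1.25, adjusted p = 0.566). At these low levels it was 0.99 with a pseudocount of 0.1 and 0.95 with voom on the recovered reads.

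Fosb, a FOS family gene best known from neurons, was barely detected. Fosb (ENSMUSG00000003545, chromosome 7, 19302696 to 19310051, minus strand; 4 exons) had 2, 7 and 7 reads in LKO replicates 1 to 3, against 0, 2 and 37 reads in WT replicates 1 to 3. In FPKM these were 0.0252, 0.0717 and 0.0590 in LKO, against 0, 0.0182 and 0.379 in WT. The count of 0 allows up to 3 reads, or 0.0249 FPKM, for counting error only. WT replicate 3, also the WT library with the highest Fos, held most of the Fosb reads. With no filter on low values the log2 difference of Fosb was -0.09 (limma adjusted p = 0.837).

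**Figure D2:**
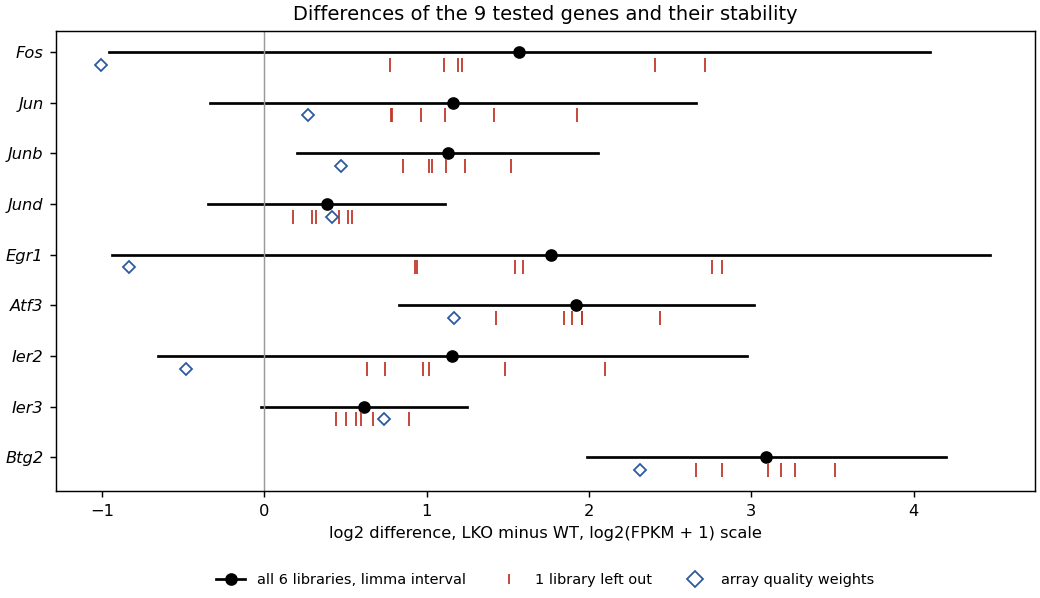
Log2 difference, LKO minus WT, on the log2(FPKM + 1) scale (horizontal axis) for the 9 tested genes, with 95% limma intervals (black), the values with 1 library left out (red ticks) and those with array quality weights (blue diamonds). Intervals of Btg2, Atf3 and Junb lie above 0, and the weighted values of Fos (-1.01), Egr1 (-0.83) and Ier2 (-0.48) lie below it. The intervals are not adjusted for the number of genes, and 1076 of 11672 genes tested had an unadjusted limma p under 0.05.

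The order of mean levels per length was similar in the 2 groups, apart from the places of Jund, Ier3 and Atf3. In LKO, Ier2 averaged 119 ± 84.2 FPKM, Junb 91.7 ± 38.7, Jun 61.5 ± 39.1, Egr1 60.8 ± 57.9, Jund 49.7 ± 8.84 and Btg2 47.6 ± 27.9 (SD, n = 3). Each of these means lay within the larger SD of its neighbour. Fos followed at 15.3 ± 14.1 FPKM in LKO, then Atf3 at 5.08 ± 3.93, Ier3 at 1.87 ± 0.861 and Fosb at 0.0520 ± 0.0240. In WT, Ier2, Junb and Jund lay together at 40.2 ± 17.3, 38.7 ± 5.58 and 38.2 ± 9.18 FPKM. Jun at 22.2 ± 7.63 and Egr1 at 18.3 ± 22.6 FPKM came next in WT, followed by Btg2 at 4.25 ± 1.57, Fos at 3.89 ± 5.17, Ier3 at 0.815 ± 0.133, Atf3 at 0.378 ± 0.119 and Fosb at 0.133 ± 0.214. Among the 10 genes Btg2 ranked 4, 3 and 5 in LKO replicates 1 to 3, against 6, 6 and 7 in WT replicates 1 to 3.

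The Jun family was led by Junb or by Jund, depending on the library. Its summed level was 264, 121 and 223 FPKM in LKO replicates 1 to 3, against 109, 81.9 and 106 FPKM in WT replicates 1 to 3, so that no LKO library overlapped WT (exact permutation test, two-sided, p = 0.1, the smallest possible). Jund made up 20.5%, 45.8% and 17.7% of that sum in LKO, against 41.3%, 34.0% and 39.2% in WT (exact permutation test, two-sided, p = 0.4). LKO replicates 1 and 3 were thus low in Jund share and LKO replicate 2 was the highest of all. Junb made up 47.5%, 40.7% and 44.9% of the sum in LKO, against 30.6%, 46.5% and 42.1% in WT (exact permutation test, two-sided, p = 0.6). The Fos family reached 5.85, 0.933 and 13.2 FPKM per 100 FPKM of the Jun family in LKO, against 0.725, 1.26 and 9.65 in WT (exact permutation test, two-sided, p = 0.6). In all 6 libraries Jun family transcripts thus outnumbered Fos family transcripts per length.

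**Figure D3:**
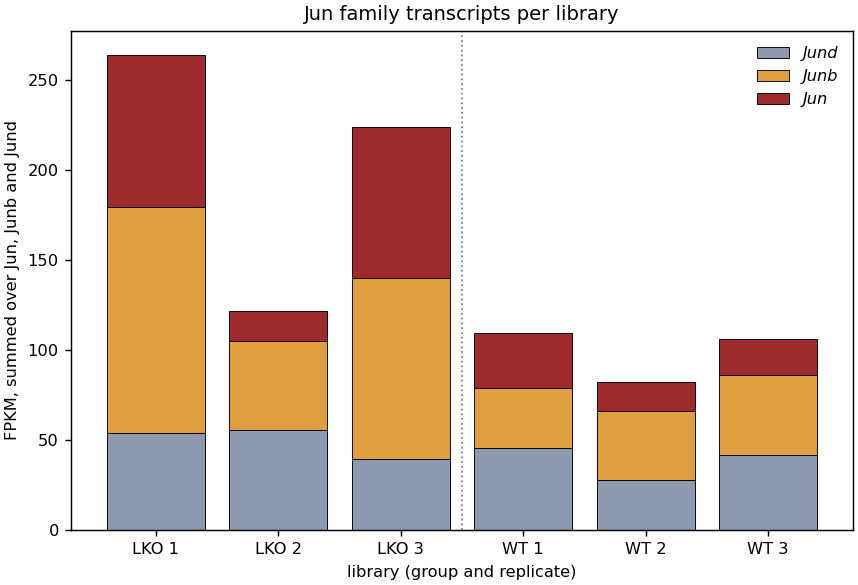
Summed FPKM of Jund, Junb and Jun (stacked bars, vertical axis) in each LKO and WT library. LKO replicates 1 and 3 reached 264 and 223 FPKM, while LKO replicate 2 at 121 FPKM lay close to the WT libraries at 81.9 to 109 FPKM.

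The spread between libraries of 1 genotype differed widely among the 10 genes. The SD of log2(FPKM + 1) was 2.03 in LKO and 1.45 in WT for Fos, and 1.93 in LKO and 1.84 in WT for Egr1. The median SD of all genes tested was 0.391 in LKO and 0.272 in WT, and Fos and Egr1 lay above the 99th percentile in both. Ier2 had an SD of 1.63 in LKO and 0.561 in WT. Atf3 spread widely in LKO, at 1.01, but little in WT, at 0.128. Jund was the steadiest in LKO, at 0.267, below the median of all genes tested. In WT the SD of Jund was 0.364, above the median of all genes tested.

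**Figure D4:**
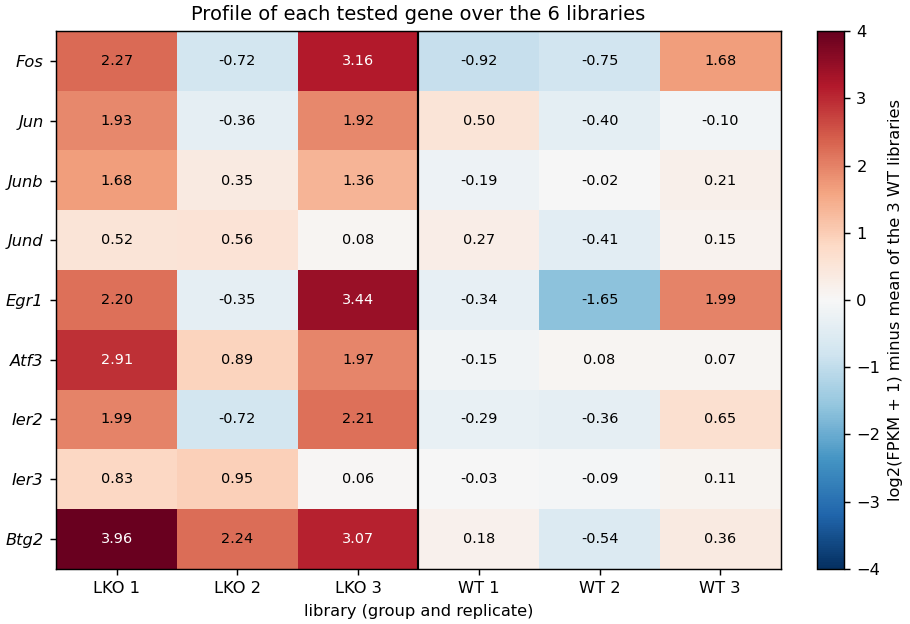
Log2(FPKM + 1) of each tested gene minus the mean of its 3 WT libraries (colour and printed values), by library. LKO replicate 2 is below 0 for Fos, Jun, Egr1 and Ier2 but at 2.24 for Btg2, and WT replicate 3 is at 1.68 for Fos and 1.99 for Egr1.

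Likeness of profile was measured as the root mean square difference of mean-centred log2(FPKM + 1) over the 6 libraries, against 4414 genes that averaged 5 FPKM or more and carry an established symbol. Closest to Fos were Egr1 (0.482) and Ier2 (0.626), then Nr0b2 (0.876), which encodes the orphan receptor SHP, and Dusp6 (0.992), which encodes an ERK phosphatase. Jun ranked 5 and Junb 8 by this measure, while Btg2 ranked 54 and Jund 1391. Atf3, Ier3 and Fosb averaged under 5 FPKM and were not compared. Nr0b2 had 95.0, 29.6 and 93.8 FPKM in LKO replicates 1 to 3, against 22.1, 30.0 and 54.7 FPKM in WT replicates 1 to 3. Closest to Btg2 were the cytoskeletal actin gene Actg1 (0.468), the small MAF gene Maff (0.795), the stress cytokine gene Gdf15 (0.815) and the stress-response gene Gadd45a (0.818). Actg1 was the 1 gene called higher in LKO, at 93.4, 66.4 and 76.3 FPKM in LKO, against 10.7, 10.2 and 10.3 FPKM in WT (limma adjusted p = 0.0254). Each profile rests on 6 libraries that also differ in depth and genotype.

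Other genes of the pathway were taken from lists, and none of their members passed the threshold in either direction (limma). Of 14 tested AP-1 relatives 8 had a log2 difference above 0 and 6 below, with a median of 0.18. Over all genes tested 54.1% lay above 0, with a median of 0.04. Maff was higher in every LKO library, at 18.5, 12.1 and 18.3 FPKM, against 1.66, 4.14 and 4.25 FPKM in WT (limma adjusted p = 0.138). Fosl2, the FOS relative FRA2, was at 2.48 ± 1.62 FPKM in LKO and 0.754 ± 0.166 FPKM in WT, and Atf1 at 6.90 ± 2.28 and 3.87 ± 0.479 FPKM in LKO and WT. Mafg, another small MAF gene, was lower in every LKO library, at 12.3 ± 4.57 FPKM in LKO and 22.2 ± 2.94 FPKM in WT. The limma adjusted p of these 3 was between 0.486 and 0.509.

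Of 10 other immediate early transcription factors tested, 9 lay above 0 and 1 below (median 0.32), with 0 called by limma. Nfil3, a bZIP repressor, was at 20.4 ± 7.64 FPKM in LKO and 6.53 ± 2.04 FPKM in WT (limma adjusted p = 0.294). Klf6 and Ier5, a zinc finger factor gene and an immediate early gene, overlapped between groups, at 1.76 ± 0.901 and 2.30 ± 1.11 FPKM in LKO and 0.807 ± 0.337 and 1.40 ± 0.160 FPKM in WT. Nr4a1, an orphan receptor induced along with Fos in many cells, was at 5.61, 0.839 and 0.765 FPKM in LKO, against 0.990, 0.616 and 1.13 FPKM in WT, so that LKO replicate 1 alone was high. Egr2, Egr3, Egr4, Nr4a2, Nr4a3 and Klf4 were under the filter. Of 17 other immediate early effectors 11 lay above 0 and 6 below (median 0.86), against 54.1% above 0 over all genes tested. Of these 17, 7 were higher in every LKO library, against 8% of all genes. The kinase gene Sik1 was at 18.9 ± 11.7 FPKM in LKO and 4.47 ± 1.90 FPKM in WT, and the RNA-binding protein gene Zfp36l1 at 32.5 ± 15.3 and 11.0 ± 1.75 FPKM in LKO and WT (limma adjusted p = 0.320 for each). Sgk1, a kinase gene, was at 5.74 ± 1.36 FPKM in LKO and 2.64 ± 0.463 FPKM in WT. Gadd45b had 82.5, 23.7 and 3.38 FPKM in LKO replicates 1 to 3, against 1.76, 1.40 and 0.846 FPKM in WT.

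Of 16 tested genes for serum response factor, its partners and MAP kinases, 10 lay above 0 and 6 below, with a median of 0.09. Srf was at 4.87 ± 1.68 FPKM in LKO and 2.81 ± 0.937 FPKM in WT (limma adjusted p = 0.603), and the kinase gene Rps6ka3 at 1.24 ± 0.282 and 0.532 ± 0.0447 FPKM in LKO and WT. Of 9 MAP kinase phosphatase, Sprouty and Spred genes, which act in feedback on this pathway, 8 lay above 0 and 1 below (median 0.54). Dusp6 was at 45.3, 10.9 and 29.6 FPKM in LKO, against 2.70, 11.5 and 12.9 FPKM in WT, with LKO replicate 2 under 2 of the 3 WT libraries. Dusp4 was at 0.936 ± 0.222 FPKM in LKO and 0.248 ± 0.141 FPKM in WT (limma adjusted p = 0.389).

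Of 12 BTG, TOB and CCR4-NOT genes 8 lay above 0 and 4 below, with a median of 0.04, and in none were the groups apart. Btg3 was at 1.79, 2.39 and 0.249 FPKM in LKO, against 0.284, 0.156 and 0.128 FPKM in WT, so that LKO replicate 3 lay within WT. Of 13 tested p53 targets 7 lay above 0 and 6 below (median 0.08). Cdkn1a, the cell cycle inhibitor p21, was at 5.49, 10.8 and 0.519 FPKM in LKO, against 0.365, 0.272 and 0.396 FPKM in WT (limma adjusted p = 0.454). Of 8 tested targets of ATF4 and the integrated stress response, which also induces Atf3, 5 lay above 0 and 3 below (median 0.40). Asns, asparagine synthetase, was at 18.8, 22.5 and 19.3 FPKM in LKO, against 6.30, 0.0416 and 0.234 FPKM in WT (limma adjusted p = 0.201).

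Heat shock genes and markers of other cells were read in the same libraries. All 12 heat shock genes had log2 differences above 0 (median 0.55), and none was called by limma. Relative to the WT mean their median was 0.44, 1.07 and 0.75 in LKO replicates 1 to 3, against -0.51, 0.16 and 0.27 in WT replicates 1 to 3. LKO replicate 2, the lowest LKO library for Fos, was the highest for heat shock genes. Neutrophil markers summed to 16.3, 11.4 and 3.27 FPKM in LKO, against 3.82, 0.803 and 3.72 FPKM in WT. All 4 tested neutrophil markers had log2 differences above 0 (median 0.90), and 0 were called by limma. S100a8 was at 4.65, 2.21 and 0.683 FPKM in LKO, against 0.374, 0.410 and 0.369 FPKM in WT (limma adjusted p = 0.436). Ly6g, under the filter, was at 0 in all 6 libraries. Kupffer cell and macrophage markers summed to 46.3, 15.4 and 37.3 FPKM in LKO, against 42.8, 32.7 and 15.9 FPKM in WT. The endothelial sum was 22.8 to 63.9 FPKM in LKO and 37.4 to 56.4 FPKM in WT, the stellate and fibroblast sum 12.1 to 20.9 and 13.3 to 16.6 FPKM in LKO and WT, and the biliary sum 7.17 to 28.9 and 10.4 to 18.3 FPKM in LKO and WT. Lymphocyte markers summed to 0.574 to 2.04 FPKM in LKO and 2.09 to 3.05 FPKM in WT, and erythroid markers to 91.2 to 149 and 139 to 330 FPKM in LKO and WT. The part of these genes and cells in the levels of the 10 genes was not tested.

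**Figure D5:**
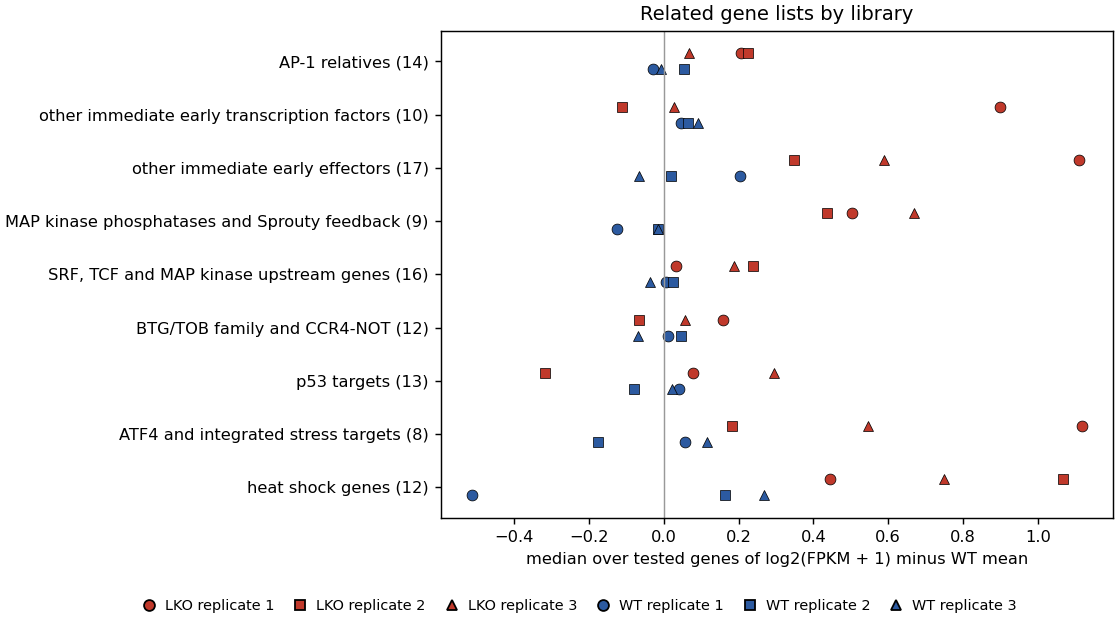
Median over the tested genes of each list (number in brackets) of log2(FPKM + 1) minus the WT mean (horizontal axis), by library, LKO in red and WT in blue. For heat shock genes LKO replicate 2 lies highest, at 1.07, and for other immediate early transcription factors LKO replicate 1 stands alone at 0.90.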

How the data were processed

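Liver RNA was extracted with TRIzol and RNeasy columns and sequenced after NEBNext Ultra preparation, per the labels' protocols. Tools named in the submitters' processing notes, without roles, are HISAT2 2.0.5 and featureCounts 1.5.0-p3 beside CASAVA and DESeq2 1.20.0, with mm10 as build. Neither annotation nor strand setting is stated there. The authors deposited 1 table of FPKM values per library; the unit was read from the values. FPKM times merged exon length in GENCODE vM21 (54495 of 54532 identifiers) gave multiples of a library-specific step, and 96.1% to 96.4% of values above 0 were whole within 0.05 read, hence the reads quoted.

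The test was limma-trend with robust empirical Bayes (limma 3.58.1, R 4.3.3) on log2(FPKM + 1) of genes averaging 0.5 FPKM or more, genotype as the only term, Benjamini-Hochberg over all 11672 genes and a threshold of 0.05. Single values used exact permutation (SciPy 1.17.1). Figures used matplotlib 3.10.9.

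The 10 genes, the lists and the tests were chosen with earlier results of these data known. Named were all 10 genes, the genes with the smallest p in each list of related genes (1 to 4), Arid2, and the 4 genes most like Fos and Btg2. Heat shock genes and most cell type markers were given as list values, without their genes of smallest p. Prdx2 and Junos were added for their overlap, and Ly6g and 6 immediate early factor genes as genes under the filter. Alternatives are listed in the closing section. RefSeq gave promoter windows for 8 of the 10 genes. Library totals limit the precision, and read-based floors cover counting error only.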

Additional observations from a re-analysis of the deposited data

How the results depend on the processing

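None of the 9 tested genes passed in the fit reported, and 130 of 135 refitted log2 differences of the 9 tested genes kept their direction and their side of the threshold over 15 alternatives. The exceptions all came with array quality weights, which gave WT replicate 3 a weight of 5.44 and LKO replicate 2 one of 2.42, against 0.299 to 1.10 for the other libraries. Fos (-1.01), Egr1 (-0.83) and Ier2 (-0.48) then turned negative, and 2 genes passed, Btg2 (2.31, limma adjusted p = 0.0152) and Ier3 (0.74, limma adjusted p = 0.0462). The iteration behind these weights stopped before reaching its tolerance. Weights also gave 621 genes higher and 574 lower in all. With the replicate number as a block 0 genes were higher and 0 lower, and none of the 9 passed. Deviations of same-numbered libraries correlated at 0.494, 0.303 and -0.0234 for replicates 1 to 3. LKO replicates 1 and 2 thus correlated best with the WT library of the same number. LKO replicate 3 correlated best with WT replicate 2 (0.447), so the numbers did not pair all libraries. Genes called higher numbered 0 with equal library totals, with quantile normalization and with no filter, and 0 to 13 with 1 library left out (13 without LKO replicate 3; 0 without LKO replicate 1, WT replicate 2 or WT replicate 3). Genes called lower numbered 1 with no filter, 1 without both libraries numbered 1, and 0 to 4 with 1 library left out (2 without LKO replicate 2, 1 without WT replicate 1, 0 without WT replicate 3). At 0 calls without WT replicate 3, 654 genes had an unadjusted limma p under 0.05, and with the block 1478 had. In the fit reported 1076 had. Of the 9 tested genes, between 3 and 7 had every LKO library above every WT library with 1 library left out, against 10.3% to 21.1% of all genes, and 4 with equal totals (5.91% of all genes) or quantile normalization (7.85%), where Ier3 joined. Voom on the recovered reads, a pseudocount of 0.1 and a minimum mean of 1 FPKM called none of the 9. With 10 to 17 reads in WT, Atf3 is limited by depth, as are Ier3 and Fosb.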

Other observations

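Most of the 10 genes were short with few exons. In GENCODE vM21 the longest basic transcript of Jun, Junb, Jund and Ier2 had 1 exon, against 6.78% of 22028 protein-coding genes, and that of Egr1, Ier3 and Btg2 had 2. Gene spans ran from 1240 bases for Ier3 to 7356 for Fosb, against a median of 17318, with Atf3 at 47744 as the exception. The pentamer ATTTA, the core of the AU-rich elements through which many short-lived mRNAs are degraded, occurred 4.91 times per kb in the longest 3′ UTR of Fos and 8.16 times per kb in that of Ier3, against a median of 1.35 over 19938 genes. Junb had 4.12 and Btg2 2.27 per kb, while Ier2 had none in 755 bases. Egr1, which varied widely within both groups, had 1.64 per kb.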
